A study of Homo sapiens with 6 samples.

Results

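The rows described here carry symbols of ribosomal protein pseudogenes and had a mean raw count of 20 or more over 6 libraries of HEK293T cells. Of 59087 rows in the counts table, 1146 had a symbol of this form, and 716 of these had no read in any library. The threshold left 27 rows. RPLP0, RPLP1 and RPLP2 met the same spelling, but the annotation gives them as protein-coding genes of the ribosomal P stalk. They are therefore kept apart, and 24 rows are pseudogenes. The measured counts chose the rows, so the levels are a description.

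HEK293T is a human embryonic kidney line. Total RNA was sequenced from wild type (WT) cells and from the lines KO1 and KO2, which the labels give as separate knockouts of THUMPD2, with 2 libraries in each group. THUMPD2 is an RNA methyltransferase that modifies the U6 RNA of the spliceosome. Neither the guide, the altered allele nor the clonality of a line is stated in the labels. They also do not say that the 2 libraries of a group came from different cultures, and the p-values may therefore reflect technical spread alone.

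A processed pseudogene is a copy of a spliced messenger RNA that was written back into the genome. It has no introns, usually lacks a promoter of its own and gathers mutations. Ribosomal protein genes, which encode the subunit proteins of the ribosome and are among the most transcribed genes, left many such copies. Their sequences stay close to the parent gene, so short reads can be hard to assign, and a copy that landed inside another gene can be transcribed along with it.

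Sequences of the pseudogenes and of the parent coding sequences were taken from the GENCODE v29 transcripts (GRCh38). The 24 pseudogenes were 64.6% to 100% identical to the parent in the aligned part, with a median of 89.99%. The longest stretch without a difference had a median of 44 bases and ran from 11 bases in RPL7P57 to 224 in RPS2P5. Only 25.7% of the RPL7 coding sequence could be aligned to RPL7P57, at 64.6% identity. In RPL41P1 all 75 bases of the RPL41 coding sequence were present without a difference. The open reading frame was as long as that of the parent in 2 of the 24, RPL12P1 and RPL41P1. The 403 pseudogene rows with reads under the threshold had a median identity of 90.2%, and the 715 rows without reads 87.8%, so the rows over the threshold differed little from the other rows with reads in this respect.

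Windows of 150 bases are shown for the row that all but vanished in both lines, the row that fell in both, the row that moved in opposite directions and the row whose counts followed those of its parent. Capitals mark the bases in which copy and parent differ. RPS16P9 (minus strand, window chr19:45332975-45333124) had 20 differences from RPS16. RPL6P24 (minus strand, chr10:13591776-13591925) had 14 differences from RPL6. RPL12P14 (plus strand, chr1:15792865-15793014) had 5 differences from RPL12, and RPS2P5 (plus strand, chr12:118246084-118246233) had 2 from RPS2. Each copy is followed by its parent, 5′ to 3′ on the strand of the annotated gene.
RPS16P9: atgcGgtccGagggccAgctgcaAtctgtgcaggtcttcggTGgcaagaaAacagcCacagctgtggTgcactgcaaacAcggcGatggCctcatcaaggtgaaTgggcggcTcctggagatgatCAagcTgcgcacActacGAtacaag
RPS16: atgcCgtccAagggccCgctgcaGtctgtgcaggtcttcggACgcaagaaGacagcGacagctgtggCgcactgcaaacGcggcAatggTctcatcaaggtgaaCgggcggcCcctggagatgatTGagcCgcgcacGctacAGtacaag
RPL6P24: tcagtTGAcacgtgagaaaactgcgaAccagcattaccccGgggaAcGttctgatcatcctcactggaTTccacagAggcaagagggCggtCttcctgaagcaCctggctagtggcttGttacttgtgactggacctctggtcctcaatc
RPL6: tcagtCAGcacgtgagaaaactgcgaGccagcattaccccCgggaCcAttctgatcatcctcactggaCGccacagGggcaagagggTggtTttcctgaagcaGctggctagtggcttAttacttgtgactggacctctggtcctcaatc
RPL12P14: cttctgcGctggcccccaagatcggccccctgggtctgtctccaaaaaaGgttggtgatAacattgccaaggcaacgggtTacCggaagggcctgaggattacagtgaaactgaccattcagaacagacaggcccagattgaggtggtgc
RPL12: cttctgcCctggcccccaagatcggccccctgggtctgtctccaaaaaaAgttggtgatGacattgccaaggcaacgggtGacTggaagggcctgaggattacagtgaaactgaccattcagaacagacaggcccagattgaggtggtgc
RPS2P5: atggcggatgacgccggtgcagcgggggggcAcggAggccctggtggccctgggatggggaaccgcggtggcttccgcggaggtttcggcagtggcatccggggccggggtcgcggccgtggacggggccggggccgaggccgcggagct
RPS2: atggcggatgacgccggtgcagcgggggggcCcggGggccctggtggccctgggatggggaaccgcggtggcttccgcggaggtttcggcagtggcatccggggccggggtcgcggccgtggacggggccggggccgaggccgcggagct

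The deposited counts summed to between 7414339 and 8391143 reads a library, a small part of the sequencing depth named in the design text. THUMPD2 had 0 to 3 reads in each library, WT included, and its row was no check of the labels. The GAPDH row held 168.5 ± 30.02 reads (mean ± SD, n = 6), while AC006064.4, which shares 422 exonic bases with GAPDH on the other strand, held 131125 ± 7525. Per 1000 reads of AC006064.4 the GAPDH row had 1.00 and 1.12 reads in the WT libraries, 1.48 and 1.27 in those of KO1, and 1.62 and 1.21 in those of KO2, so both lines were above WT. The kit keeps the strand per the labels, and the strand setting of the counting is not given in the sources used here. From which strand the reads of a row came was not tested. A change is therefore stated for the row of a name, not for the gene. Of 9 rows listed as HEK293T markers, 7 had a mean count of 10 or more, and none of 7 kidney tubule and podocyte markers did.

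Where a pseudogene lay went with whether its row had reads. A row counted as inside another gene if 50% or more of its exonic sequence fell within the span of that gene. A row that fitted several places was given the first in a fixed order. The order was exons of an opposite-strand gene, exons of a same-strand gene, introns of an opposite-strand gene, introns of a same-strand gene. A row placed in an opposite-strand gene may thus also lie inside a same-strand gene. Of 1142 placed pseudogene rows, 359 lay inside a gene of the opposite strand, and 65.5% of these had reads. Another 210 were placed inside a gene of the same strand, and 21.9% had reads. The remaining 573 lay outside other genes, and 25.5% had reads.

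Of the 24 pseudogenes over the threshold, 17 were placed by this order inside a gene of the opposite strand, 0 inside a gene of the same strand and 7 outside. They made up 4.74% of the opposite-strand rows and 1.22% of the outside rows. The highest row placed inside a same-strand gene had a mean count of 7. Rows inside opposite-strand genes held 42.4% of the reads of all 1142 rows, rows inside same-strand genes 0.99%, and rows outside 56.6%, of which RPS18P9 alone had a mean of 1196 reads. Outside by this rule does not mean clear of other genes. RPS18P9 shares 206 exonic bases with KATNA1 on the other strand, and RPL23AP82 (mean 425.2) shares 167 with RABL2B. When any base within another gene counted, 20 of the 27 rows, RPLP2 included, lay inside.

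**Figure D1:**
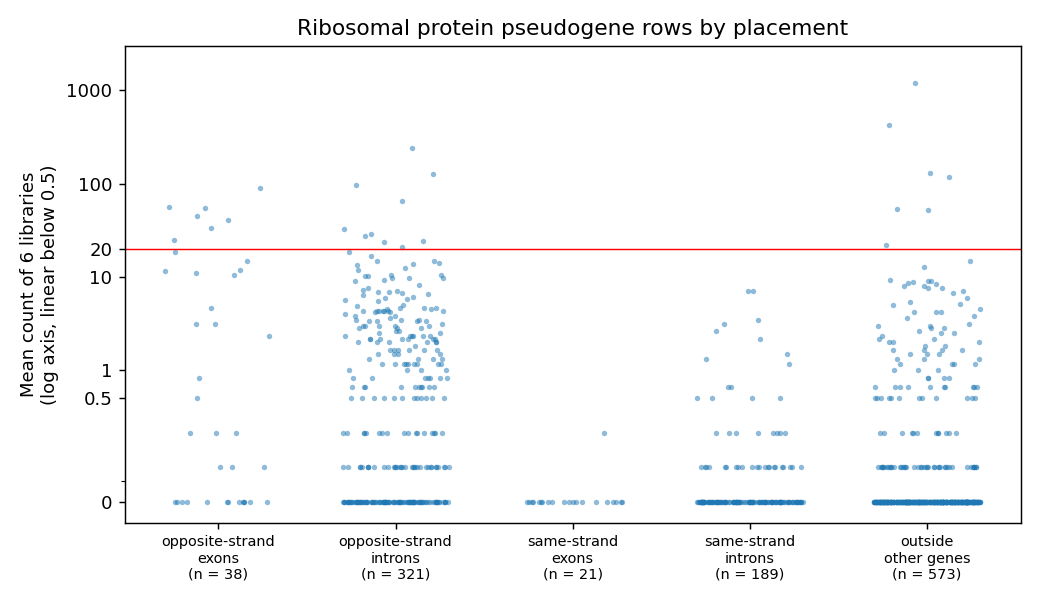
Each point is 1 of 1142 ribosomal protein pseudogene rows, with the mean count of 6 libraries on a log axis that is linear below 0.5, grouped by where the pseudogene lies; the red line is the threshold of 20. All 17 rows above the line inside other genes are placed in a gene of the opposite strand, and no row placed inside a same-strand gene exceeds a mean of 7.

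Among the 17 inside rows, 7 shared at least 50 bases with exons of the gene on the other strand. RPL36P4 lay wholly within exons of ERGIC3 (318 bases, a protein of the early secretory pathway) and RPS12P28 within exons of SDF2 (427 bases), neither over coding bases. RPL12P1 shared 424 bases with exons of the mitotic kinesin gene KIFC1, of which 123 were coding, and RPL21P4 shared 66, all coding, with BRCA1. RPL6P24 shared 121 with PRPF18, RPS6P16 177 with PTS, and RPL7P42 253 with the noncoding gene AC090061.1. The other 10 lay in introns: RPS2P5 in TAOK3, RPL7P50 in CD70, RPL18AP7 in EXOG, RPS11P5 in GOLGA3, RPL7AP10 in ZNF431, RPL7P57 in ZNF81, RPS20P4 in HMGXB3, RPL22P24 in SWT1, RPL35AP32 in MAP2K1, and RPSAP52 in HMGA2, where 1023 of its 2035 exonic bases lay within the gene.

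The 24 rows came from 20 of 77 parent families. RPL7 gave 3 of its 61 rows, RPL12 2 of 50 and RPL22 2 of 22. RPL23A, with the most copies, gave 1 of 91, and RPS3A none of 38.

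Per kilobase of exonic length, RPS16P9 was highest in WT, with a mean of 813.8 reads, and lowest in KO1 and KO2, with 2.34 and 4.68. RPS18P9 had 525.2 in WT, 664.3 in KO1 and 891.01 in KO2, and was highest in both knockout lines. RPL12P14 stood at 149 in WT, 80.6 in KO1 and 573.5 in KO2. RPS2P5 stood at 160.4 in WT, 329.9 in KO1 and 325.4 in KO2. RPSAP52 was lowest in WT, with 9.58.

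**Figure D2:**
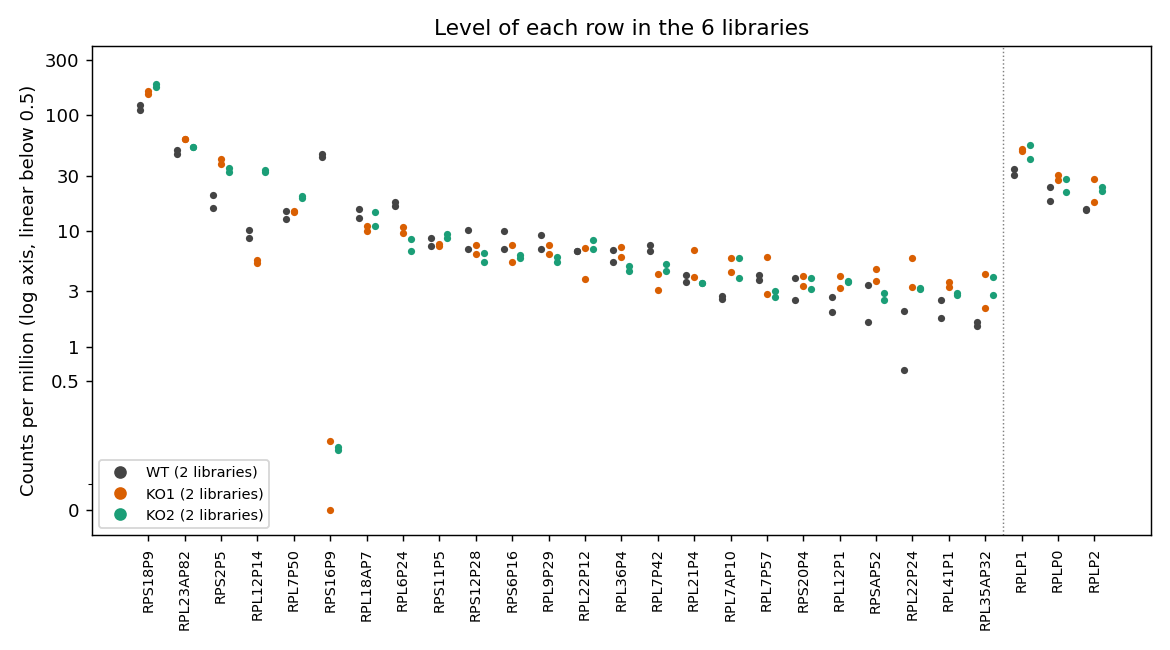
CPM (TMM-scaled, log axis that is linear below 0.5) of the 24 pseudogene rows, sorted by mean count, and of RPLP1, RPLP0 and RPLP2 to the right of the dotted line; each point is 1 library. RPS16P9 drops from 44.1 and 46.1 in WT to under 0.3 in the 4 knockout libraries, and RPL12P14 is low in KO1 and high in KO2.

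At the threshold, the rows just inside were RPL35AP32, RPL41P1 and RPL22P24, with mean counts of 21.2, 21.8 and 23.5. Just outside were RPL5P30 (16.8), RPL31P52 (18.5) and RPS9P1 (18.7). RPS9P1 had 35 and 30 reads in the WT libraries, 6 and 7 in those of KO1, and 17 and 17 in those of KO2. Of the 24 pseudogene rows, 18 had a mean of 20 or more in each group. RPS16P9 passed through WT alone and had to be lower in the knockout lines. RPL12P1, RPL22P24, RPL35AP32, RPL41P1 and RPSAP52 had a mean under 20 in WT, so that a pass favoured rows higher in a knockout line.

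Summed over the 24 pseudogene rows, the level was 360.1 and 361.8 CPM (read counts scaled to library size) in the WT libraries, 383.1 and 381.6 in those of KO1, and 417.9 and 416.1 in those of KO2. The groups did not overlap. Without RPS18P9 the sums were 236.7 and 249.3 in the WT libraries, 230.7 and 218.8 in those of KO1, and 240.2 and 230.02 in those of KO2, and KO2 overlapped both WT and KO1. Both sums include RPS16P9, at 44.1 and 46.1 CPM in the WT libraries and at most 0.27 in a knockout library. They also include the rows with a mean under 20 in WT. The threshold favoured a direction for all these rows, so no shift is read from the sums. The 79 rows of cytosolic ribosomal protein genes summed to 2096 and 2148 in the WT libraries, 2549 and 2649 in those of KO1, and 2610 and 2544 in those of KO2.

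All 27 rows passed the filter on low counts, and the tests were adjusted over 14184 rows. Both lines were compared with the same WT libraries. Changes not marked as fold are log2 fold changes, with ± SE where given. In KO1 against WT, 4 pseudogene rows were higher, where the background over all rows tested was 10.4%, and 4 lower, where it was 13.3%. In KO2 against WT, 5 were higher (background 13.6%) and 2 lower (15.4%). With the same sign in both lines, 3 were higher (5.79%) and 2 lower (7.72%), out of 24. Between KO1 and KO2, 2 rows differed, both lower in KO1, where the background was 10.3% for lower and 10.1% for higher.

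RPS16P9 and RPL22P24 are among these rows but met the threshold only through the groups in which they were high, so nothing is read from their calls. Including RPLP0, RPLP1 and RPLP2, 11 of 27 rows were called in KO1 (23.6% of all rows), 9 in KO2 (29%), 7 in both with the same sign (13.5%) and 2 between the lines (20.4%). Without WT library 2 the count in KO1 was 7. The median log2 fold change of the 24 pseudogene rows was 0.14 in KO1 and 0.15 in KO2, beside 0.01 and 0.02 over all rows tested. These medians include rows with a mean under 20 in some groups. The threshold favoured a direction for such rows, so no shift is read from the medians. Of the 17 rows inside other genes, 2 were higher in both lines, RPS2P5 and RPL22P24, and 1 lower, RPL6P24. Of the 7 outside, 1 was higher, RPS18P9, and 1 lower, RPS16P9. Since nothing is read from the calls of RPL22P24 and RPS16P9, inside and outside rows are not compared. For comparison, 14 of 239 other processed pseudogene rows were higher in both lines (background 5.79%) and 15 lower (7.72%).

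**Figure D3:**
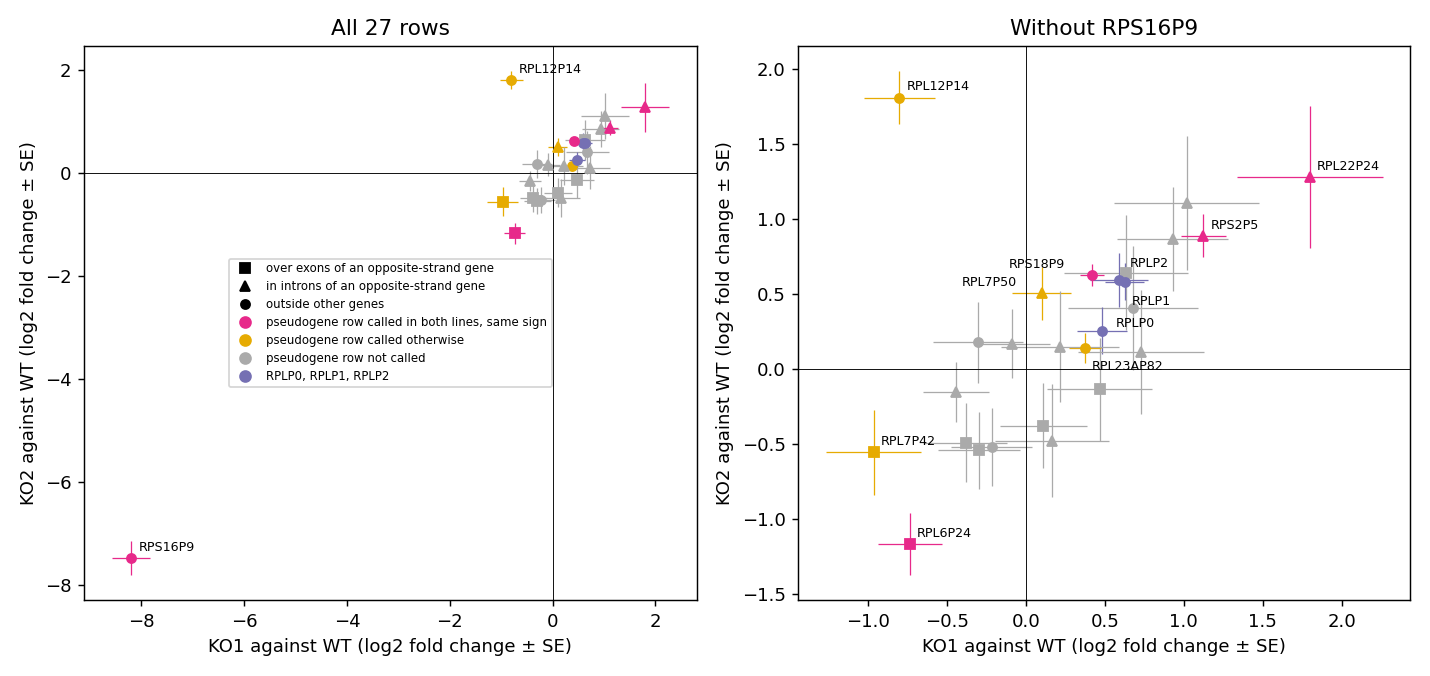
Log2 fold change (± SE) in KO1 (x axis) and KO2 (y axis) against WT for all 27 rows and, at right, without RPS16P9; the shape gives the placement and the colour the calls. RPS16P9 lies far down in both lines, and RPL12P14 stands alone with called changes of opposite sign, −0.80 in KO1 and 1.81 in KO2.

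RPS16P9 (chr19:45332698-45333124, minus strand), a copy of the gene of a small subunit protein, had 327 and 368 reads in the WT libraries, 2 and 0 in those of KO1, and 2 and 2 in those of KO2. Nearly all reads were thus in WT. The scaled WT level was 329 times that of KO1 (exact Poisson 95% interval 90.7 to 2720.1) and 191 times that of KO2 (74.2 to 701.9), intervals that cover counting error only. Since the row met the threshold through WT alone, these values are a description and no test is given. In bulk RNA, fewer cells with a transcript and less of it per cell cannot be told apart.

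The parent row RPS16 had 86 and 127 reads in the WT libraries, 142 and 106 in those of KO1, and 135 and 139 in those of KO2, and was not called. RPS16P9 lies 310 bases before the start of KLC3 (plus strand, a kinesin light chain). ERCC2, the gene of a helicase of the transcription factor TFIIH, lies 16713 bases away on the strand of RPS16P9, and its row shares 535 exonic bases with KLC3 on the other strand. It had 865 and 857 reads in the WT libraries, 225 and 205 in those of KO1, and 211 and 232 in those of KO2, and fell in both lines, with log2 fold changes of −1.92 ± 0.10 and −2.09 ± 0.10 (± SE, n = 2 against 2 libraries), with edgeR adjusted p-values of 2.13e-17 and 1.08e-18. The KLC3 row, at 0.16 and −0.02, was not called. CKM, the muscle creatine kinase gene, is nearer on the same strand (9721 bases), and its row had 13 and 6, 4 and 10, and 15 and 25 reads and was not called. MARK4, 27415 bases away on the other strand, had 8 to 23 reads and was not called. RPS16P9 had 37.8% and 42.9% of the reads of ERCC2 in WT and under 1% in each knockout library.

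RPL6P24 (chr10:13591460-13592323, minus strand), a copy of the gene of a large subunit protein, lies inside PRPF18, which encodes a factor of the second step of splicing. It had 131 and 131 reads in the WT libraries, 81 and 68 in those of KO1, and 70 and 58 in those of KO2, so every knockout library was below WT. It fell in both lines, with log2 fold changes of −0.74 ± 0.20 and −1.17 ± 0.21 and edgeR adjusted p-values of 0.00625 and 2.68e-05. Without KO1 library 2 the KO1 value was −0.66 and not called. The PRPF18 row itself had at most 2 reads in a library. The counts table had no row under the symbol of the parent, RPL6, so copy and parent could not be compared.

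RPS2P5 (chr12:118246084-118246962, plus strand), a copy of the small subunit gene RPS2 in an intron of the kinase gene TAOK3, had 118 and 164 reads in the WT libraries, 285 and 295 in those of KO1, and 290 and 282 in those of KO2. All 4 knockout libraries were above both WT libraries. It rose 2.18-fold and 1.85-fold (log2 fold changes of 1.12 and 0.89), with edgeR adjusted p-values of 7.51e-08 and 4.69e-06. The call held in each of the 14 alternatives. The row of its parent RPS2 had 566 and 776 reads in the WT libraries, 1334 and 1232 in those of KO1, and 1157 and 1171 in those of KO2. RPS2 rose with log2 fold changes of 1.02 ± 0.08 and 0.66 ± 0.08. RPS2P5 had 20.8% to 25.1% of the reads of RPS2 in every library, and the copy is 98.7% identical to its parent. Whether reads of 1 were counted for the other was not tested. The TAOK3 row had 7 to 22 reads and was not called.

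RPS18P9 (chr6:149592687-149601878, plus strand), annotated as a transcribed pseudogene of the small subunit gene RPS18 with 4 exons, was the most abundant. It had 915 and 897 reads in the WT libraries, 1142 and 1150 in those of KO1, and 1462 and 1612 in those of KO2, and the 3 groups did not overlap. It rose 1.34-fold in KO1 and 1.54-fold in KO2 (log2 fold changes of 0.42 and 0.63), with edgeR adjusted p-values of 4.11e-05 and 1.55e-08. The row AL078581.3, on the other strand 1823 bases away and sharing 103 exonic bases with the membrane protein gene GINM1, had 851 and 921, 1100 and 1054, and 1455 and 1439 reads. RPS18P9 had 97.4% to 112.02% of the reads of AL078581.3 in every library, a row chosen after its values were seen. Nearer rows did not all go the same way. GINM1, 939 bases away on the strand of RPS18P9, had 8 and 8, 12 and 12, and 13 and 18 reads. It was at 0.66 ± 0.58 and 0.81 ± 0.57 and not called. AL078581.1, on the other strand 24 bases away, had 103 and 72, 49 and 56, and 77 and 68 reads, at −0.66 ± 0.24 in KO1, which was called, and −0.41 ± 0.23 in KO2, which was not. KATNA1, with which RPS18P9 shares 206 exonic bases on the other strand, was at −0.23 ± 0.19 and 0.13 ± 0.19 and not called. KO1 against KO2 was at −0.21 ± 0.07 (edgeR adjusted p = 0.0384), a call kept in 4 of 14 alternatives. It ended without WT library 1 (−0.21), KO1 library 1 (−0.16), KO2 library 1 (−0.25) or KO2 library 2 (−0.18). The parent row RPS18, with log2 fold changes of 0.37 ± 0.15 and 0.34 ± 0.14, was not called in either line.

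RPL22P24 (minus strand, in an intron of the RNA endonuclease gene SWT1) had 15 and 5 reads in the WT libraries, 44 and 23 in those of KO1, and 26 and 28 in those of KO2. It met the threshold only through the knockout libraries, so its log2 fold changes of 1.80 ± 0.46 and 1.28 ± 0.48 are a description, with no test. Its entries among the called rows ended without WT library 2, at 1.17 and 0.66. Without KO1 library 1 the KO1 value was 1.31 and not called, and the KO2 call ended without KO2 library 1 (1.31) or 2 (1.27) and by DESeq2 (1.27). The parent row RPL22 went the other way, from 230 and 312 reads in the WT libraries to 84 and 81 in those of KO1, and 95 and 132 in those of KO2, and fell in both lines, with log2 fold changes of −1.63 ± 0.18 and −1.39 ± 0.17. RPL22 encodes a large subunit protein, and its row shares 243 exonic bases with RNF207 on the other strand. The row of the host, SWT1, stood at 0.47 ± 0.23 in KO1, not called. In KO2 it was called higher, at 1.12 ± 0.21 (edgeR adjusted p = 7.27e-05). For KO1 against KO2, SWT1 was at −0.65 ± 0.20 and RPL22P24 at 0.52 ± 0.40. Whether RPL22P24 moved with its host or apart from its parent for a shared reason was not tested. The second copy over the threshold, RPL22P12, lay outside other genes and was at −0.30 ± 0.29 and 0.18 ± 0.27, not called.

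RPL12P14 (chr1:15792796-15793285, plus strand), a copy of a large subunit gene outside other genes, moved in opposite directions. It had 65 and 81 reads in the WT libraries, 42 and 37 in those of KO1, and 267 and 295 in those of KO2, and the groups did not overlap. Its log2 fold change was −0.80 ± 0.23 in KO1 (edgeR adjusted p = 0.00708) and 1.81 ± 0.18, or 3.50-fold, in KO2 (edgeR adjusted p = 2.25e-10). KO1 against KO2 was at −2.61 ± 0.19, with an edgeR adjusted p of 7.16e-13, and this difference held in each of the 14 alternatives. Without WT library 2 the KO1 value was −0.69 and not called. The parent row RPL12, at 0.05 and 0.17, was not called.

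Its neighbours within 30000 bases had their own patterns. FBLIM1, a filamin-binding protein gene that ends 6202 bases away on the same strand, had a row with 7 and 15 reads in the WT libraries, 2 and 2 in those of KO1, and 26 and 21 in those of KO2. It too was lower in KO1 than in KO2, with a log2 difference of −3.27 ± 0.70 (edgeR adjusted p = 0.000551). UQCRHL, 13884 bases away on the other strand and named for a copy of a respiratory chain subunit gene, went from 6 and 3 reads in the WT libraries to 361 and 365 in those of KO1, and 448 and 439 in those of KO2, and so was high in both lines. Whether any of these rows moved together for a shared reason was not tested.

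**Figure D4:**
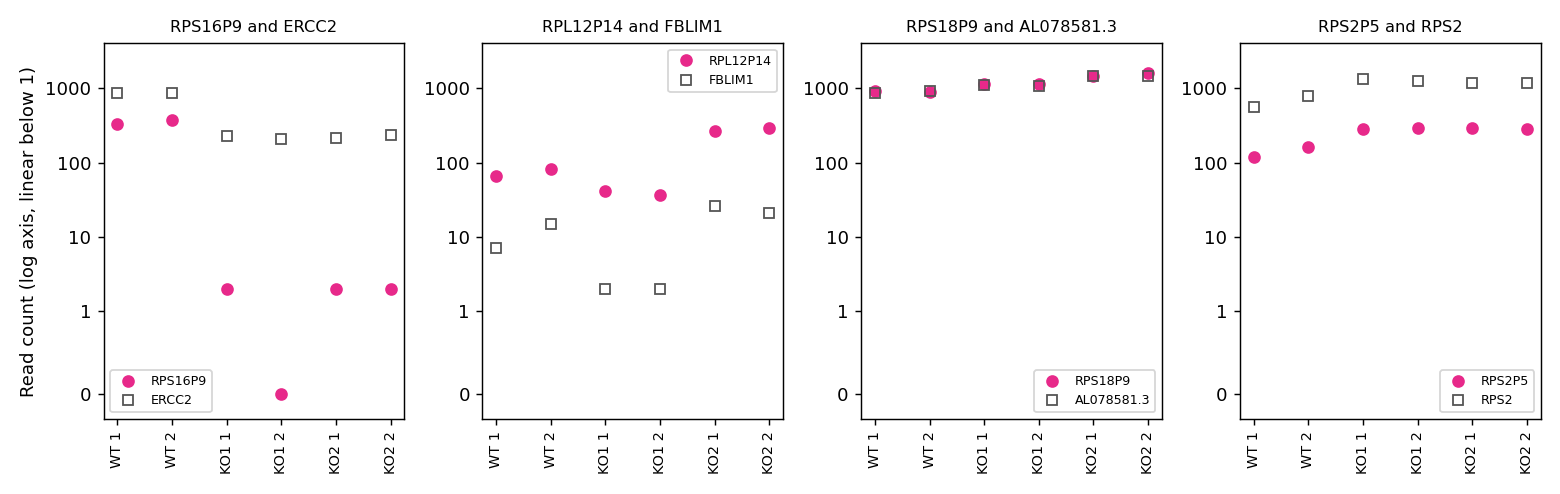
Read counts in the 6 libraries (log axis, linear below 1) of 4 pseudogene rows, as filled circles, each with a neighbouring or parent row, as open squares. RPS16P9 and ERCC2 are both lower in the 4 knockout libraries, RPL12P14 and FBLIM1 are both lowest in KO1 and highest in KO2, and RPS18P9 lies close to AL078581.3 in every library.

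Several rows were called in 1 line alone. RPL23AP82, a multi-exon pseudogene on chromosome 22 that is not annotated as processed, had 341 and 402 reads in the WT libraries, 470 and 440 in those of KO1, and 439 and 459 in those of KO2. In KO1 it rose by 0.37 ± 0.10 (edgeR adjusted p = 0.00434), while KO2 stood at 0.14 ± 0.10. Without WT library 1 the KO1 value was 0.31 and not called. The difference between the lines, 0.23 ± 0.10, did not pass (adjusted p = 0.0889), except with upper-quartile factors, at 0.28.

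RPL7P42 had 50 and 60 reads in the WT libraries, 23 and 30 in those of KO1, and 43 and 39 in those of KO2. In KO1 it fell by 0.97 ± 0.30 (edgeR adjusted p = 0.0163), while KO2 stood at −0.55 ± 0.28, and the lines did not differ by test (−0.41 ± 0.31). The KO1 call ended without WT library 2 (−0.89), without KO1 library 1 (−0.75) and by DESeq2 (−0.96). AC090061.1, the noncoding gene it overlaps, had 1014 to 1187 reads and was at −0.03 and −0.09.

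RPL7P50, in an intron of the gene of the immune ligand CD70, had 111 and 101 reads in the WT libraries, 109 and 106 in those of KO1, and 164 and 167 in those of KO2. It rose by 0.51 ± 0.18 in KO2 (edgeR adjusted p = 0.0274) and was at 0.10 ± 0.18 in KO1. The KO2 call ended without WT library 2 (0.39), KO2 library 1 (0.49) or KO2 library 2 (0.54), by DESeq2 (0.49) and without a low-count filter (0.49). The RPL7P57 row, a further copy of RPL7, was at 0.16 ± 0.36 and −0.48 ± 0.38. The parent row RPL7 was called in KO1 alone (0.55 ± 0.16, against 0.29 ± 0.16 in KO2).

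The other rows were not called in either line. RPL7AP10 (0.93 in KO1, 95% interval 0.22 to 1.65, and 0.87 in KO2, 0.16 to 1.57) and RPL35AP32 (1.02 ± 0.46 and 1.11 ± 0.45) had the highest values. For RPL7AP10 the edgeR adjusted p-values were 0.0508 and 0.0588, and of 14 alternatives 6 called it in KO1 and 4 in KO2. RPL35AP32 had a mean of 12 reads in WT and met the threshold only through the knockout lines. Its values are therefore a description, with no test. AC116913.1, which shares 432 exonic bases with MAP2K1, the host of RPL35AP32, had 633 to 773 reads and was at 0.04 and 0.00. RPL12P1 was at 0.63 ± 0.39 and 0.64 ± 0.39, RPSAP52 at 0.73 ± 0.40 and 0.11 ± 0.41, and RPL41P1 at 0.68 ± 0.41 and 0.41 ± 0.41. These rows too had a mean under 20 in WT, and their values are a description. RPL18AP7, with 70 to 119 reads, was at −0.44 ± 0.21 and −0.15 ± 0.20, and DDTP1, another pseudogene row on that strand of EXOG, at −0.24 ± 0.36 and −0.28 ± 0.36. RPS11P5, with 54 to 82 reads, was at −0.09 ± 0.24 and 0.17 ± 0.23. The rows RPS12P28, RPS6P16 and RPL9P29 were at −0.22 to −0.54 in both lines. RPL36P4, RPL21P4 and RPS20P4 were between −0.38 and 0.47.

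RPLP0, RPLP1 and RPLP2, which encode the acidic stalk proteins that engage translation factors, were each called higher in at least 1 knockout line. RPLP1 had 227 and 275 reads in the WT libraries, 367 and 365 in those of KO1, and 458 and 365 in those of KO2, and rose by 0.63 ± 0.12 and 0.58 ± 0.12, with edgeR adjusted p-values of 0.000161 and 0.000261. RPLP2, with 115 and 120, 134 and 199, and 183 and 207 reads, rose by 0.59 ± 0.18 in KO1 and 0.59 ± 0.18 in KO2. Its KO1 call ended without WT library 2 (0.56) or KO1 library 2 (0.22), and both the KO1 (0.60) and the KO2 call (0.58) ended by DESeq2. RPLP0 had 134 and 190 reads in the WT libraries, 209 and 217 in those of KO1, and 233 and 190 in those of KO2, and rose by 0.48 ± 0.16 in KO1. That call ended without WT library 1 (0.30), without KO1 library 2 (0.41) and by DESeq2 (0.49). Of 74 tested rows of cytosolic ribosomal protein genes, these 3 included, 25 were higher (background 10.4%) and 1 lower (13.3%) in KO1. In KO2, 13 were higher (13.6%) and 2 lower (15.4%), and in both lines 12 were higher (5.79%) and 1, RPL22, lower (7.72%). The GAPDH row stood at 0.55 ± 0.16 in KO1, which was called, and 0.22 ± 0.17 in KO2, and its reads per 1000 of AC006064.4 were higher in both lines, as given above. AC006064.4 itself was called in opposite directions, at 0.19 ± 0.04 in KO1 and −0.19 ± 0.04 in KO2. The part of this ratio in the values of the ribosomal protein rows was not tested.

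In the authors' deposited table, which compares the 4 knockout with the 2 WT libraries, all 27 rows were listed and 5 had a q-value under 0.05, as did 9.88% of all rows with a q-value there. In the authors' deposited table these were RPS16P9 (log2 fold change −7.66), RPL6P24 (−0.92), RPS2P5 (1.05), RPS18P9 (0.56) and RPLP1 (0.64). RPS16P9 met the threshold of this report through WT alone, so nothing is read from its q-value. RPL12P14 stood at 0.60 with a q-value of 0.685 in the authors' deposited table, where both lines were pooled.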

How the data were processed

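Per the labels' protocols, libraries were made from total RNA with the NEBNext Ultra II Directional kit. The authors deposited raw read counts per gene symbol for 59087 rows. The submitters' processing notes name STAR 2.7.1a, HTSeq 0.6.1p1, limma and Trim Galore, and the builds hg38 and GRCh38.p6. How multiply mapped reads were counted is not given in the sources used here. The authors also deposited log2 fold changes and q-values of the knockout against the WT libraries, per the file headers.

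Counts of all 6 libraries were tested in 1 fit of 3 groups with the quasi-likelihood test of edgeR 4.0.16 in R 4.3.3 (TMM factors, filterByExpr, 14184 rows) and rows with a p below 0.05 after Benjamini-Hochberg adjustment were called. On simulated counts for KO1 against WT over 14184 rows, 98.9% of 2-fold changes were called at a mean of 100 or more reads and 59.1% below that. Rows were placed by symbol on GENCODE v29 (GRCh38), and pseudogenes aligned locally to the longest parent coding sequence with Biopython 1.88.

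The members and lists were chosen with earlier results of these data known. Named rows were all rows called in both lines or in 1 line, RPS16P9, RPL6P24, those that differed between lines and the 5 most abundant. Other rows named, such as neighbours, were chosen after their values were seen. As alternatives, DESeq2 1.42.0, limma-voom 3.58.1, upper-quartile and RLE factors, 2 other filters, a replicate block, fits of the compared libraries only and leaving out each library were run. The parent gene RPL6 had no row under that symbol in the counts table.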

Additional observations from a re-analysis of the deposited data

Results flagged for a closer look

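The effects of the 2 knockout lines differed by a direct test for 2 of the 27 rows, where 20.4% of all rows tested differed. RPL12P14 was lower in KO1 than in KO2 by a log2 difference of −2.61, with called changes of opposite sign against WT. RPS18P9 was at −0.21 for KO1 minus KO2 (edgeR adjusted p = 0.0384), a rise in both lines that was smaller in KO1. This call was kept in 4 of 14 alternatives. The neighbouring row AL078581.3 was also at −0.21, but it was chosen after its values were seen, so nothing is read from the likeness.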

How the results depend on the processing

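Of 56 recomputed counts of called rows, 47 stayed within 1.5 times the reported count. Leaving out 1 library gave 7 to 12 rows called in KO1 (reported 11), 7 to 11 in KO2 (9), 5 to 8 in both lines (7) and 1 to 2 between the lines (2). The count between the lines was 1 with RLE factors, DESeq2, no low-count filter, only the libraries compared and the replicate block, where the call of RPS18P9 ended (−0.19 with RLE factors, −0.21 with the block). The labels do not say that replicate numbers pair libraries, and the differences between replicates correlated at −0.03 to −0.02 between groups. With the replicate block no other count moved by over 1.5 times. At a mean count of 10 or more, 48 rows met the rule and 36 lay inside other genes, and at 50 or more 16 and 7. For single named rows, 468 values kept their side of the threshold, 34 lost the call and 1 gained it. No called value changed sign, while some values that were not called did, such as RPL7P50 in KO1 (0.10, and −0.02 without WT library 2). With upper-quartile factors the median of all rows moved by 0.08 in KO1 and 0.03 in KO2. On simulated counts 2-fold changes were often missed in rows with a mean under 100 reads, a share that need not hold for these data.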
